A study of Mus musculus with 9 samples.

Results

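Cyclins, cyclin-dependent kinases (CDKs) and the genes of mitosis were followed in RAW264.7 macrophages in which the transcription factor NFAT5 had been inhibited in 2 ways. The set was a list of 45 genes, and its members were all probes that carry the symbol of a listed gene in the platform annotation. This gave 93 of the 45281 probes on the array, for 43 genes. Ccnb1 and Mki67 had no probe under their symbol, so their expression was not analysed here and only their promoters were searched.

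Cell division is driven by CDKs, which are active only when bound to a cyclin. D-type cyclins with CDK4 or CDK6, then E-type cyclins with CDK2, take a cell through G1 into DNA synthesis, in part by releasing E2F from the retinoblastoma protein. Cyclins A and B with CDK1 drive mitosis, where Aurora and Polo kinases build the spindle, the spindle checkpoint holds CDC20 back until every chromosome is attached, and CDC20 then starts the destruction of cyclin B and securin. RAW264.7 is a macrophage-like line from a mouse tumour that divides continuously, unlike most tissue macrophages.

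Cells of the knock-down group were stably transfected with short hairpin RNA that targets Nfat5. The decoy group was stably transfected with oligonucleotides that hold the consensus binding sequence of NFAT5 and compete for the protein. The control group was untreated RAW264.7 cells, and all cells were grown in alpha-MEM with 10% serum. Each group had 3 Illumina bead arrays, and no control with an irrelevant hairpin or oligonucleotide was analysed here, so transfection and selection cannot be told apart from NFAT5 inhibition. Separate cultures are not stated in the labels, nor whether a line was 1 clone, and the spread behind each p-value may therefore be technical.

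The spread of raw signals differed between the groups. The median raw signal was 172 to 187 units on knock-down arrays and 156 to 167 on decoy arrays, against 150 to 158 on control arrays, while the upper quartile was 209 to 257 and 214 to 237, against 319 to 336. Probes above background made up 21.5% to 27.1% of each knock-down array and 24.6% to 26.9% of each decoy array, against 34.1% to 34.9% of each control array, and the median SD within a group was 0.227, 0.184 and 0.0878 in log2 (n = 3 each) for knock-down, decoy and control. Nfat5 had raw signals of 1428, 1051 and 734 units in knock-down cells and 2083, 1731 and 1430 in decoy cells, against 5049, 4591 and 4857 in control, on its brightest probe. After normalization this probe differed from control by -1.03 in log2 in knock-down cells (limma adjusted p = 2.7e-05) and by -0.49 in decoy cells (adjusted p = 0.0104). The next-brightest Nfat5 probe was higher by 0.65 in knock-down cells (adjusted p = 0.00143) and by 0.72 in decoy cells (adjusted p = 0.00104) under quantile normalization. Under median scaling it was at -0.55 and -0.22. Another Nfat5 probe, above background on no array, was called higher in knock-down cells (0.45, adjusted p = 0.0419). Of 10 macrophage markers with a probe, 6 were above background on all 9 arrays (Csf1r, Lyz2, Spi1, Cd14, Tyrobp and Fcgr3). Ptprc, Adgre1 and Mpeg1 were above it on some arrays only, and 1 marker was above it on none. No marker of T cells, B cells or neutrophils was above background on any array, and of 4 fibroblast and 4 epithelial markers 3 each were above it on none, with Pdgfra and Krt8 above it on some arrays. The summed raw signal of the macrophage markers was 56214 to 101502 units on knock-down, 78476 to 89014 on decoy and 102690 to 106869 on control arrays, and its part in the results below was not tested. Fewer dividing cells and less RNA per dividing cell cannot be told apart in these bulk samples.

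Mitotic genes share promoter elements, and 4 promoters are shown because their genes had the largest changes in the same direction in both treated groups among members with an entry in the RefSeq promoter table (build GRCm38.p6) and a mean change of at least 2-fold. Cdca8, Cdk2 and Cdc20 were called higher and Bub1b lower. Each line gives the 250 bases before the table's transcription start, 5′ to 3′ on the gene's strand. Capitals mark the letters CCAAT, the box bound by NF-Y, on either strand, TTTGAA, the cell cycle homology region of late cell-cycle promoters, and TTCCCGC or TTGGCGC, forms of the E2F site.
Cdca8 (chr4:124936918-124937167, minus strand): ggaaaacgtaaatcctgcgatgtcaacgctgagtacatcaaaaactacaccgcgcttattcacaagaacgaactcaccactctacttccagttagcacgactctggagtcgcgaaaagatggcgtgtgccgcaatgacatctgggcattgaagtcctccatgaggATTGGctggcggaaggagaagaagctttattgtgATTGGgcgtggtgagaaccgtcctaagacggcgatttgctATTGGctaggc
Cdk2 (chr10:128705052-128705301, minus strand): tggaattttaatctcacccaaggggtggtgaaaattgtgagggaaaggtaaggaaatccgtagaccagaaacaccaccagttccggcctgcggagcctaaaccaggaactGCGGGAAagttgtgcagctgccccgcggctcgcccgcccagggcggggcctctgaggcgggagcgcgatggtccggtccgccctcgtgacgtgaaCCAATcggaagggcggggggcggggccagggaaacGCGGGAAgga
Bub1b (chr2:118597961-118598210, plus strand): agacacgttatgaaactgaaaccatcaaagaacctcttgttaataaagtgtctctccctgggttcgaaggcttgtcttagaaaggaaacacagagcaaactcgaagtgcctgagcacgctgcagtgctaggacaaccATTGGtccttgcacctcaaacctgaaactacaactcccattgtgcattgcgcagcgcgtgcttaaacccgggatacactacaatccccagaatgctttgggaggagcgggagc
Cdc20 (chr4:118437344-118437593, minus strand): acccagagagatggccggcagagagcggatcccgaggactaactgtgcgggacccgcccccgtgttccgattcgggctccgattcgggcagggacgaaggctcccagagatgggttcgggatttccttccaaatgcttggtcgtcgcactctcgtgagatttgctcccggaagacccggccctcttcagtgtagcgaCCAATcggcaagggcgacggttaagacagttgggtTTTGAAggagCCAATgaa

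All 4 promoters held a CCAAT box, with 3 in Cdca8, 1 in Cdk2, 1 in Bub1b and 2 in Cdc20. Cdk2 also held 2 E2F forms and Cdc20 1 copy of TTTGAA. Over the 34 members with an entry, 23 (67.6%) held CCAAT, against 34.5% of the first listed promoters of 27025 genes. TTTGAA was in 8 of the 34 (23.5%, against 16.3% of all), Cdc20, Bub3, Mki67, Ccnb2, Cdk1, Top2a, Espl1 and Kif11, and an E2F form in 6 (17.6%, against 5.7%). TGGAAA, the core of the NFAT5 binding sequence, was searched on both strands in the same windows and is in none of the printed promoters. It was in those of 3 members, Bub1, Cenpa and Ccnb2 (8.8%, against 18.7% of all). Of 6 members with an entry that were called higher in both treated groups with no opposing probe, 4 held CCAAT and 0 TGGAAA, and of 6 called lower in both, 5 held CCAAT and 1 TGGAAA. These are matches of letters in 1 window and say nothing of binding.

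The first question was how these genes differed between the knock-down and control cells, and the second was the same for the decoy. Ccne2 and Ccnd2, for cyclins E2 and D2, had the largest rises in both, followed by Cdk2 and Cdca8, and the checkpoint kinase gene Bub1b and the spindle gene Tpx2 had the largest falls among probes above background on all arrays. Levels are given as raw scanner units and as log2 values after quantile normalization, and a difference was called at a limma adjusted p below 0.05 over all 22640 probes tested. A probe was tested if its mean over the 9 arrays was above that of the median probe, which 73 probes of 40 member genes were. The other 20 member probes, with every probe of Ccnb2, Cenpe and Kif20a among them, were above background on 0 arrays.

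In knock-down cells 21 of the 73 probes (28.8%) were higher and 13 (17.8%) lower than in control. Of all probes tested 47.6% were called, 24.2% higher and 23.4% lower. In decoy cells 18 (24.7%) were higher and 13 (17.8%) lower, where 35% of all probes were called, 17.3% higher and 17.7% lower. The share of members called higher was above that of all probes in both treated groups, and the share called lower was below it in knock-down cells and about equal to it in decoy cells, and these differences in share were not tested. Of the 73 member probes, 52 were above background on all 9 arrays. The members and all tested probes were not matched for brightness, and its part in these shares was not tested. The median difference of the 73 probes was 0.0569 in knock-down cells and -0.0539 in decoy cells, against 0.0285 and 0.0241 for all probes. Changes of at least 2-fold were called in 8 probes higher and 3 lower in knock-down cells (5.11% and 7.35% of all probes) and in 6 higher and 1 lower in decoy cells (3.07% and 3.9%). Both comparisons use the same control arrays. Without control replicate 3 the number lower in knock-down cells was 8.

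These counts depended on how the arrays were scaled. With each array brought to a common median in place of common quantiles, the median of all tested probes moved to -0.517 in knock-down cells and -0.454 in decoy cells. The 73 probes then split into 5 higher and 46 lower in knock-down cells (58% of all probes called, 5.81% and 52.2%) and 2 higher and 44 lower in decoy cells (51.9% called, 4.98% and 46.9%). The probes called higher under both scalings belonged to Ccne2, Ccnd2, Ccnd3, Cdk2 and Cdca8 in knock-down cells and to Ccne2 and Ccnd2 in decoy cells. The counts by role and by list below rest on few probes each. They are to be read beside these shares of all probes, and were not tested against them.

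**Figure D1:**
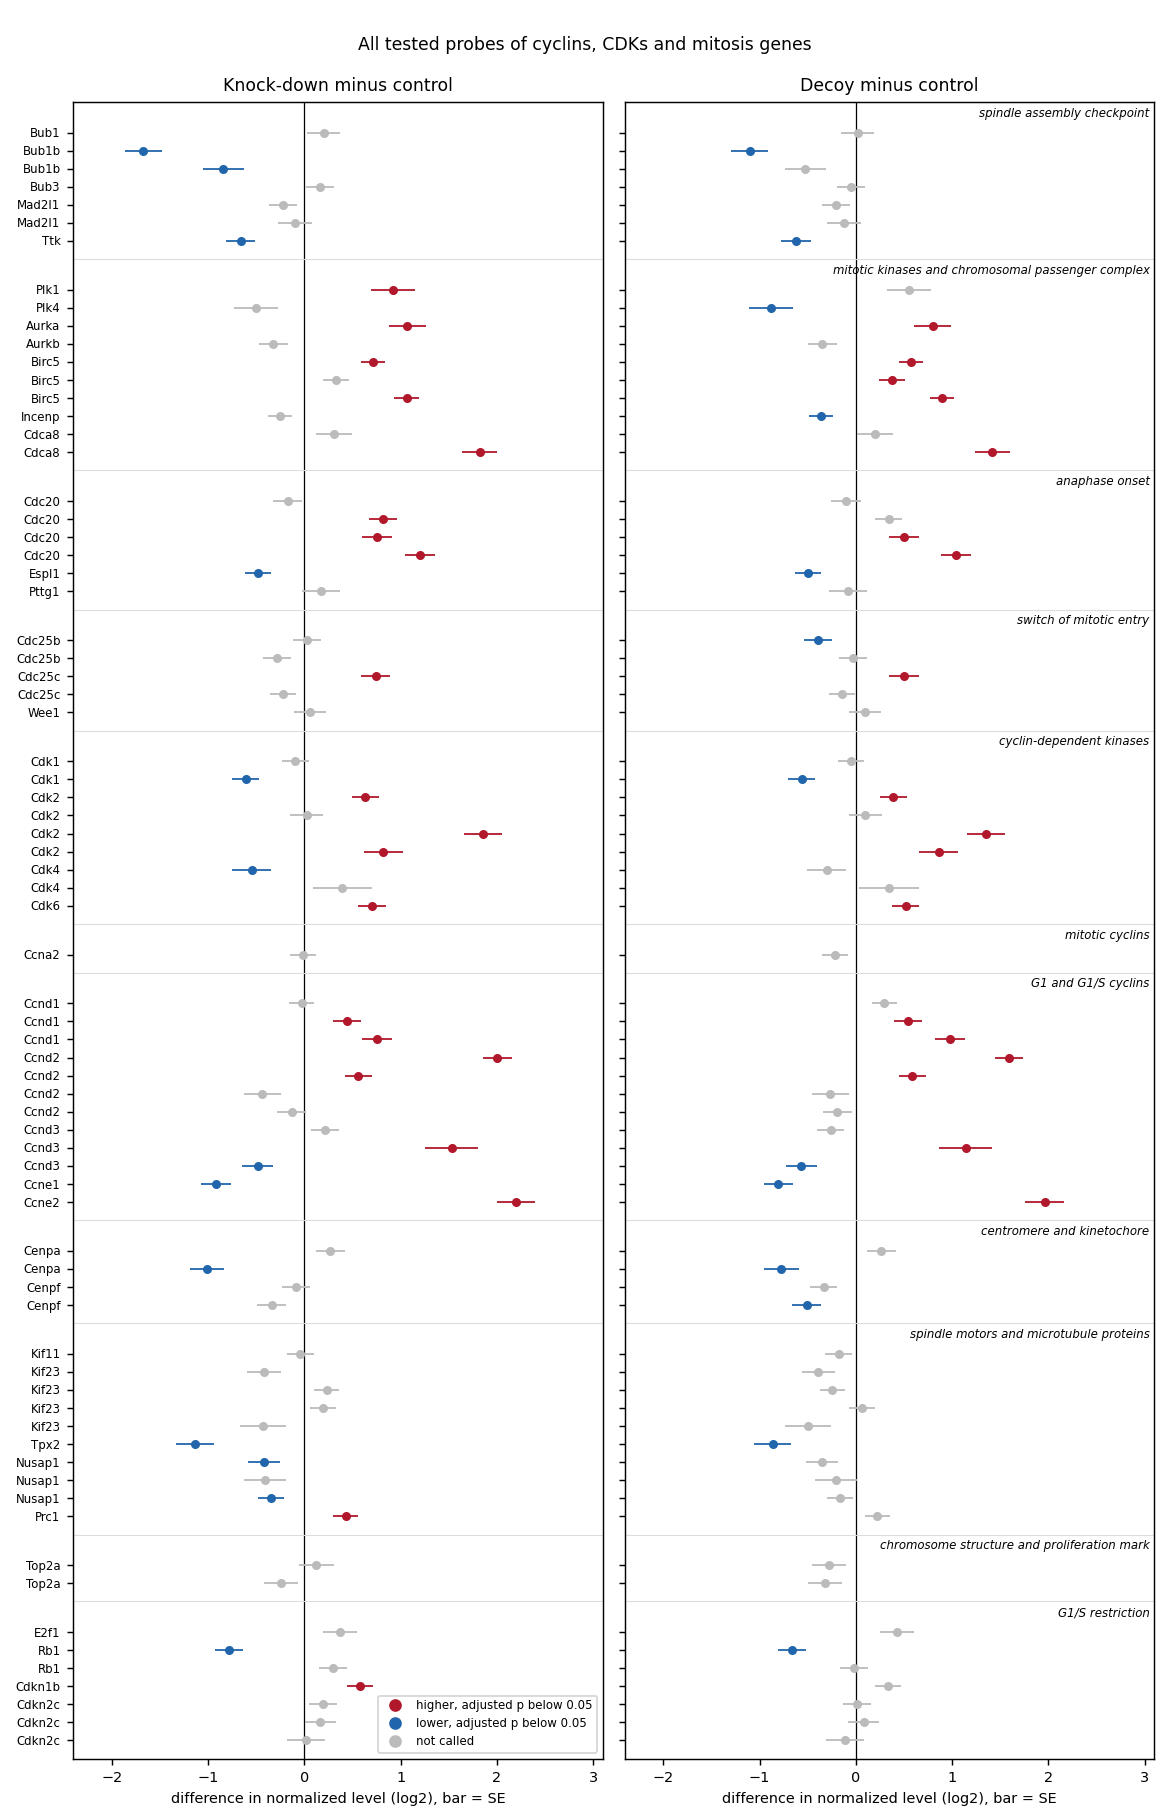
Difference in quantile-normalized level (log2) of each of the 73 tested probes between knock-down and control (left) and decoy and control (right), with its standard error, grouped by role. Red and blue points are the probes called higher (21 in knock-down cells, 18 in decoy cells) and lower (13 in each), and under median scaling 5 in knock-down cells and 2 in decoy cells were higher and 46 and 44 were lower. Probes of the same gene often lie apart.

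G1 and G1/S cyclins held the largest rises. Of 12 probes for 5 genes, 6 were higher and 2 lower in each treated group, and under median scaling 3 were higher and 6 lower in knock-down cells, and 2 higher and 3 lower in decoy cells. Ccne2, the cyclin E2 gene, had raw signals of 923, 1135 and 637 units on the knock-down arrays and 788, 1051 and 792 on the decoy arrays, against 438, 423 and 436 on the control arrays. Every treated array was above every control array. After normalization its level was 10.19 ± 0.43 in knock-down cells, 9.95 ± 0.29 in decoy cells and 7.99 ± 0.052 in control (log2, SD, n = 3 each), which is 4.59-fold higher in knock-down cells (limma adjusted p = 1.44e-06) and 3.89-fold higher in decoy cells (adjusted p = 8.7e-06). Under median scaling its differences were 1.12 and 1.15 in log2 and still called.

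Ccne1, for the related cyclin E1, went the other way. Its raw signals were 530, 500 and 334 units in knock-down cells and 563, 507 and 513 in decoy cells, against 1784, 2105 and 1684 in control. All treated arrays lay below all control arrays, and the gene was 1.89-fold lower in knock-down cells (adjusted p = 0.000225) and 1.75-fold lower in decoy cells (adjusted p = 0.00106), each from 1 probe. The paralogs that partner CDK2 thus had opposite calls in both treated groups.

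Ccnd2, for cyclin D2, had raw signals of 1650, 1418 and 976 units in knock-down cells and 1140, 1257 and 1086 in decoy cells, against 791, 853 and 776 in control, on its brightest probe. Treated arrays did not overlap with control arrays, while knock-down and decoy overlapped in raw units, and the level was 4.01-fold higher in knock-down cells (adjusted p = 2.23e-07) and 3.01-fold higher in decoy cells (adjusted p = 4.19e-06). A second probe for the same transcript rose by 0.56 and 0.58 in log2 (adjusted p = 0.00461 and 0.00537), but its differences were -0.60 and -0.34 under median scaling. The remaining Ccnd2 probes, which are annotated to cDNA clones and not to the RefSeq transcript, were near background and not called after quantile normalization. Under median scaling 1 of them was called lower in knock-down cells (-0.54, adjusted p = 0.048).

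Ccnd1, for cyclin D1, gave different answers on its probes. Its 3 probes differed from control by -0.03, 0.44 and 0.76 in knock-down cells and by 0.30, 0.54 and 0.98 in decoy cells (log2), of which -0.03 and 0.30, both on 1 probe, were not called (adjusted p for the others 0.0223 and 0.00111, and 0.0108 and 0.00028). Under median scaling the first and second were called lower in knock-down cells (-1.01 and -0.54, adjusted p = 0.00424 and 0.0392), the third was not called there (-0.38), and none was called in decoy cells (-0.49, -0.29 and 0.06). The raw signal of the probe with the largest difference was 5408, 3577 and 2809 units in knock-down cells and 5193, 6823 and 3691 in decoy cells, against 4468, 5663 and 5492 in control, so the raw values overlapped.

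After quantile normalization Ccnd3, for cyclin D3, was the only member whose tested probes were called in opposite directions, while under median scaling Cdk2 and Ccnd2 also had opposite calls in knock-down cells. One Ccnd3 probe had raw signals of 418, 579 and 276 units in knock-down cells and 326, 295 and 445 in decoy cells, against 253, 250 and 248 in control, and was 2.89-fold and 2.20-fold higher (adjusted p = 0.000391 and 0.0051). Under median scaling it was called in knock-down cells (0.75, adjusted p = 0.0394) and not in decoy cells (0.58, adjusted p = 0.102). The brightest Ccnd3 probe, at 12.31 ± 0.1, 11.83 ± 0.18 and 12.09 ± 0.1 in knock-down, decoy and control, was not called (adjusted p = 0.226 and 0.167). Under median scaling it was called lower (-0.89 and -1.16, adjusted p = 0.00265 and 0.000788). The remaining probe, above background on 1 control array and no treated array, was called lower (6.63 ± 0.19, 6.55 ± 0.24 and 7.11 ± 0.13, adjusted p = 0.0206 and 0.0126). That fall was not called without control replicate 1 in either comparison (adjusted p = 0.108 and 0.0755), nor in knock-down cells without control replicate 3 (adjusted p = 0.0531) or knock-down replicate 3 (adjusted p = 0.0692). The rising and the falling probe carry the same transcript accession, and the brightest probe another.

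Among CDKs, 4 of 9 probes were higher and 2 lower in knock-down cells, and 4 were higher and 1 lower in decoy cells, whereas under median scaling 1 and 0 were higher and 4 lower in each. The Cdk2 probe with the largest change had raw signals of 1887, 1966 and 1338 units in knock-down cells and 1298, 1441 and 1509 in decoy cells, against 1185, 1234 and 1098 in control. Treated arrays did not overlap with control arrays, while knock-down and decoy overlapped, and normalized levels of 11.18 ± 0.36, 10.68 ± 0.34 and 9.32 ± 0.09 in knock-down, decoy and control gave a 3.61-fold and 2.56-fold rise (adjusted p = 5.6e-06 and 0.000154). Under median scaling the rise was called in knock-down cells (0.62, adjusted p = 0.0066) and not in decoy cells (0.36, adjusted p = 0.0786). Of its 3 other probes, those annotated to the same transcript record rose 1.55-fold and 1.77-fold in knock-down cells and 1.31-fold and 1.81-fold in decoy cells, and these were not higher under median scaling. The fourth, annotated to another transcript, differed by 0.02 and 0.10 and was not called after quantile normalization. Under median scaling it was called lower (-1.15 and -0.82, adjusted p = 0.00959 and 0.0491).

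Cdk1, the kinase of mitosis, was not called on its bright probe after quantile normalization (12.27, 12.31 and 12.37 in knock-down, decoy and control as group means, adjusted p = 0.595 and 0.79). Raw signals of this probe were 5399, 3485 and 2642 units in knock-down cells and 4923, 4114 and 4033 in decoy cells, against 8692, 9176 and 8314 in control. Under median scaling it was called lower (-1.18 and -0.92, adjusted p = 0.00100 and 0.00544). The dim Cdk1 probe, above background in control only, was called lower (6.63 ± 0.088, 6.67 ± 0.2 and 7.24 ± 0.064, adjusted p = 0.00263 and 0.00647). Cdk4 fell 1.46-fold in knock-down cells on its brighter probe (adjusted p = 0.0369) and differed by -0.30 in decoy cells (adjusted p = 0.264), and its other probe was not called. Cdk6 was above background on 1 knock-down and 1 decoy array and on no control array. It was called higher (adjusted p = 0.000957 and 0.0111), and not under median scaling. Its other treated arrays were at background, so no fold is given. Where a fold is given below as at least a value, it sets the mean of the brighter group against the lowest signal above background.

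Mitotic kinases and the chromosomal passenger complex, which carries Aurora B to centromeres, had 5 of 10 probes higher and none lower in knock-down cells, and 5 higher and 2 lower in decoy cells, whereas under median scaling 1 was higher and 4 lower in knock-down cells, and 0 higher and 3 lower in decoy cells. Cdca8, for the passenger protein borealin, had raw signals of 3828, 3714 and 2216 units in knock-down cells and 3006, 2475 and 2790 in decoy cells, against 1919, 2405 and 2238 in control. The knock-down overlapped control in raw units, and after normalization it was 3.53-fold higher (adjusted p = 3.08e-06) and the decoy 2.67-fold higher (adjusted p = 5.68e-05). Under median scaling the rise was called in knock-down cells (0.62, adjusted p = 0.0209) and not in decoy cells (0.43, adjusted p = 0.0927). The other, brighter Cdca8 probe differed by 0.31 and 0.19 and was not called.

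Birc5 encodes survivin, another passenger protein. On the probe with the largest change its raw signals were 7555, 5112 and 4259 units in knock-down cells and 6106, 6080 and 4667 in decoy cells, against 6015, 6113 and 5755 in control. Raw values overlapped with control in both treated groups, while normalized levels did not, at 12.85 ± 0.088, 12.68 ± 0.047 and 11.79 ± 0.081, a rise of 2.09-fold and 1.86-fold (adjusted p = 1.67e-05 and 0.000139). Its other probes differed by 0.71 and 0.33 in knock-down cells and by 0.57 and 0.37 in decoy cells, called except for 0.33 (adjusted p = 0.059). With median scaling none of the 3 was called higher, and the first was at -0.04 and -0.0029.

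Aurka, for Aurora A, which acts at spindle poles, had raw signals of 7905, 4757 and 6313 units in knock-down cells and 7002, 7113 and 4063 in decoy cells, against 6900, 6901 and 6201 in control. It was 2.10-fold higher in knock-down cells (adjusted p = 0.000421) and 1.74-fold higher in decoy cells (adjusted p = 0.00536) after quantile normalization, and differed by -0.02 and -0.09 after median scaling. Plk1, the Polo-like kinase of mitotic entry, was 1.89-fold higher in knock-down cells (adjusted p = 0.00449), not called in decoy cells (0.55, adjusted p = 0.0762), and at -0.14 and -0.31 after median scaling. Aurkb, for Aurora B itself, was not called (-0.32 and -0.35, adjusted p = 0.0883 and 0.0819), but was called lower under median scaling (-1.44 and -1.24, adjusted p = 0.000279 and 0.00101). Incenp, the scaffold of the passenger complex, was 1.28-fold lower in decoy cells (adjusted p = 0.0389) and at -0.25 in knock-down cells (adjusted p = 0.111). Plk4, which starts centriole duplication, was above background on no decoy array and fell there by at least 1.64-fold (adjusted p = 0.00783), with -0.50 in knock-down cells (adjusted p = 0.0821).

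**Figure D2:**
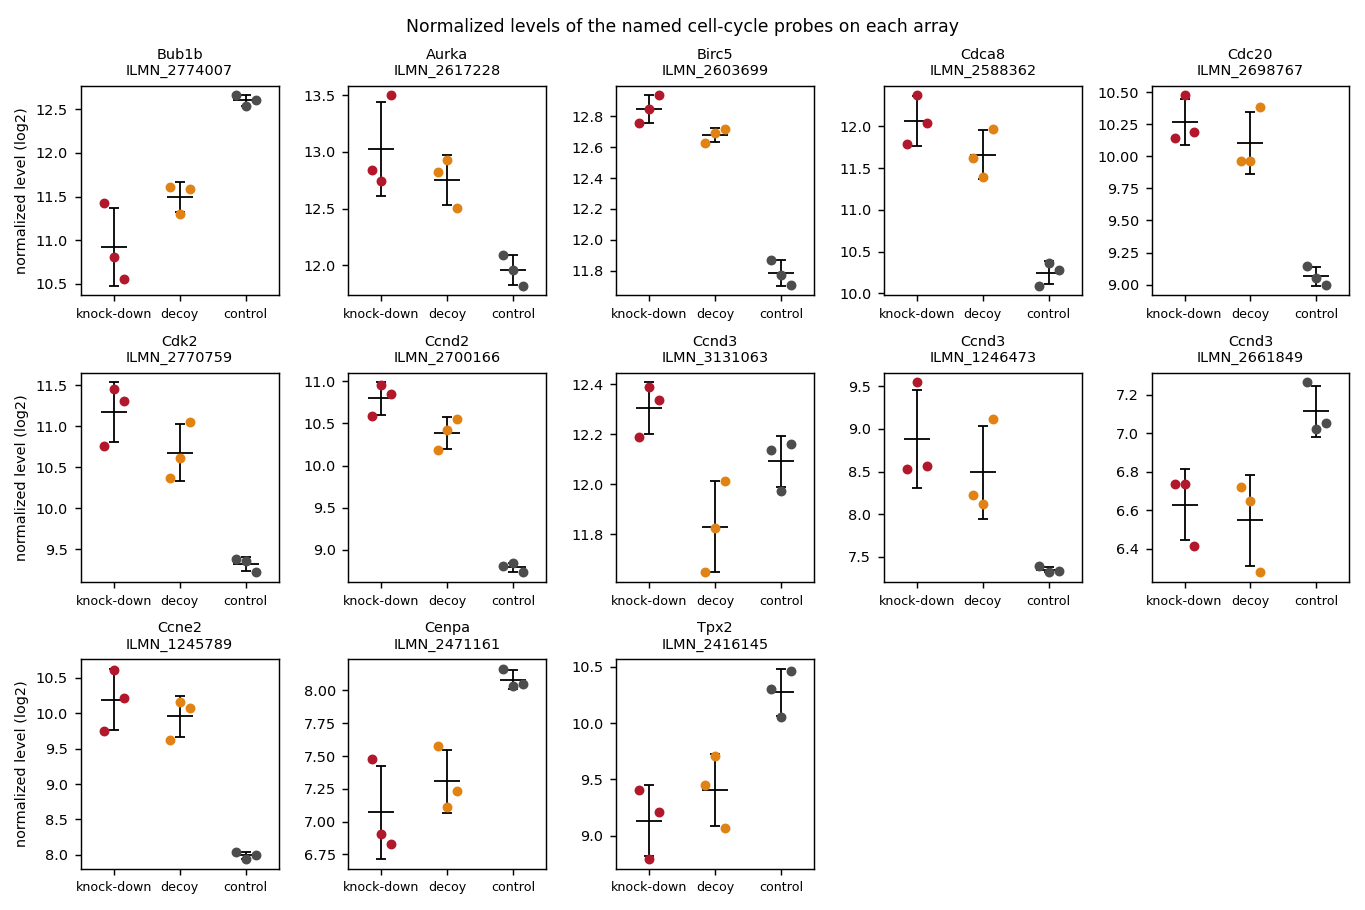
Normalized levels (log2) on each of the 3 knock-down, 3 decoy and 3 control arrays for the 13 probes named for a called change of at least 2-fold or for opposite calls within a gene, with mean and SD. Control arrays lie apart from all treated arrays except for the highest Ccnd3 probe, where decoy and control overlap.

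Of 7 tested probes of the spindle assembly checkpoint, 3 were lower in knock-down cells and 2 in decoy cells, and 0 were higher. Of all probes 23.4% and 17.7% were lower. The checkpoint calls came from 2 genes, Bub1b and Ttk. Under median scaling 6 of the 7 were lower in each treated group, against 52.2% and 46.9% of all probes. Bub1b encodes BUBR1, the checkpoint protein that holds CDC20. Its raw signals were 2955, 1293 and 797 units in knock-down cells and 2991, 2311 and 2134 in decoy cells, against 10157, 10065 and 10337 in control. Both treated groups lay far below control and overlapped each other, and the gene was 3.19-fold lower in knock-down cells (adjusted p = 1.03e-05) and 2.15-fold lower in decoy cells (adjusted p = 0.000573), with falls of -2.80 and -1.98 under median scaling. A second probe was 1.79-fold lower in knock-down cells (adjusted p = 0.00492) and at -0.53 in decoy cells (adjusted p = 0.0689). Ttk, the MPS1 kinase that starts the checkpoint signal, was above background in control only and was called lower (6.91 ± 0.22, 6.94 ± 0.19 and 7.57 ± 0.058, adjusted p = 0.0026 and 0.00595). Neither Mad2l1 probe was called (-0.10 and -0.22 in knock-down cells), nor Bub3 (0.16 and -0.05), and all 3 of these probes were called lower in both treated groups under median scaling. The tested Bub1 probe was not above background on any array.

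Genes of anaphase onset were called in both directions, with 3 of 6 probes higher and 1 lower in knock-down cells and 2 higher and 1 lower in decoy cells, whereas under median scaling 0 were higher and 3 and 4 lower. Cdc20, the activator of the anaphase-promoting complex, had 4 probes, of which 3 were higher in knock-down cells (2.30-fold, 1.76-fold and 1.69-fold) and 2 in decoy cells (2.05-fold and 1.42-fold). Raw signals of the first were 1210, 1037 and 625 units in knock-down cells and 974, 919 and 970 in decoy cells, against 1001, 992 and 943 in control, so they overlapped, and under median scaling its differences were -0.05 and 0.04 and 0 of the 4 probes were called higher. The fourth and brightest probe differed by -0.17 and -0.10 and was not called. Espl1, for separase, which cuts cohesin, had raw signals of 952, 712 and 545 units in knock-down cells and 972, 783 and 716 in decoy cells, against 2137, 2320 and 2586 in control. It was lower in both, 1.39-fold (adjusted p = 0.00971) and 1.41-fold (adjusted p = 0.0119). Pttg1, for securin, was not called (0.17 and -0.08).

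Among the regulators of mitotic entry, the phosphatase gene Cdc25c was 1.67-fold and 1.41-fold higher on 1 of its 2 tested probes (adjusted p = 0.00116 and 0.0201) and not called on the other. After median scaling the first was called lower (-0.53 and -0.49, adjusted p = 0.0201 and 0.0304), and so was the other (-1.45 and -1.13). The 5 tested probes of this role had 1 higher and 0 lower in knock-down cells and 1 higher and 1 lower in decoy cells, and with median scaling 0 higher and 4 lower in each. Its relative Cdc25b was 1.31-fold lower in decoy cells on its brighter probe (adjusted p = 0.0489) and at 0.03 in knock-down cells. The tested probe of Wee1, the kinase that opposes them, was not above background on any array. The same held for cyclin A2 (Ccna2), so no level of a mitotic cyclin could be read from these arrays.

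Spindle motors and microtubule proteins had 1 of 10 probes higher and 3 lower in knock-down cells, and 0 higher and 1 lower in decoy cells, whereas under median scaling 0 were higher and 9 and 10 lower. Tpx2, which activates Aurora A on the spindle, had raw signals of 736, 385 and 368 units in knock-down cells and 700, 770 and 431 in decoy cells, against 2181, 1985 and 2522 in control. All treated arrays were below control, by 2.20-fold in knock-down cells (adjusted p = 0.000285) and 1.82-fold in decoy cells (adjusted p = 0.00344). Nusap1, a microtubule-bundling protein, was 1.34-fold lower in knock-down cells on its bright probe (adjusted p = 0.0499), and Prc1, of the anaphase midzone, 1.35-fold higher (adjusted p = 0.0161), a rise that median scaling turned to -0.58. The kinesin genes Kif11 and Kif23 had no called probe among 5, with differences of -0.43 to 0.23 in knock-down cells.

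At the centromere, Cenpa, the histone H3 variant that marks it, was not called on its bright probe (0.27 and 0.26, adjusted p = 0.155 and 0.193). Its dim probe, annotated to a cDNA clone, had raw signals of 234, 195 and 175 units in knock-down cells and 227, 188 and 181 in decoy cells, against 480, 457 and 456 in control. It was 2.02-fold lower in knock-down cells (adjusted p = 0.000407) and 1.71-fold lower in decoy cells (adjusted p = 0.00442), with 1 array of each treated group above background. Cenpf, a kinetochore protein of late cell cycle, was called lower in decoy cells on its dimmer probe (6.59 ± 0.22, against 7.11 ± 0.082 in control, adjusted p = 0.0188), which was above background in control only. Under median scaling all 4 probes of Cenpa and Cenpf were called lower in both treated groups. Top2a, the topoisomerase of dividing cells, was not called on either probe, and both were called lower under median scaling.

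Of the genes that restrict entry into DNA synthesis, Rb1 was lower on 1 of its 2 probes. That probe had raw signals of 368, 294 and 282 units in knock-down cells and 389, 387 and 295 in decoy cells, against 977, 1006 and 1157 in control, and was 1.72-fold and 1.58-fold lower (adjusted p = 0.000683 and 0.00357). The other Rb1 probe, annotated to the same transcript, differed by 0.30 and -0.02 and was not called. Cdkn1b, for the inhibitor p27, was called higher in knock-down cells (adjusted p = 0.00283) on a probe above background on no array, so no fold is given. E2f1 was not called (0.37 and 0.43, adjusted p = 0.101 and 0.0756), nor any of the 3 probes of Cdkn2c, for the CDK4 and CDK6 inhibitor p18. Under median scaling 4 of the 7 probes of this role were lower and 0 higher in each treated group, against 1 lower in each after quantile normalization.

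**Figure D3:**
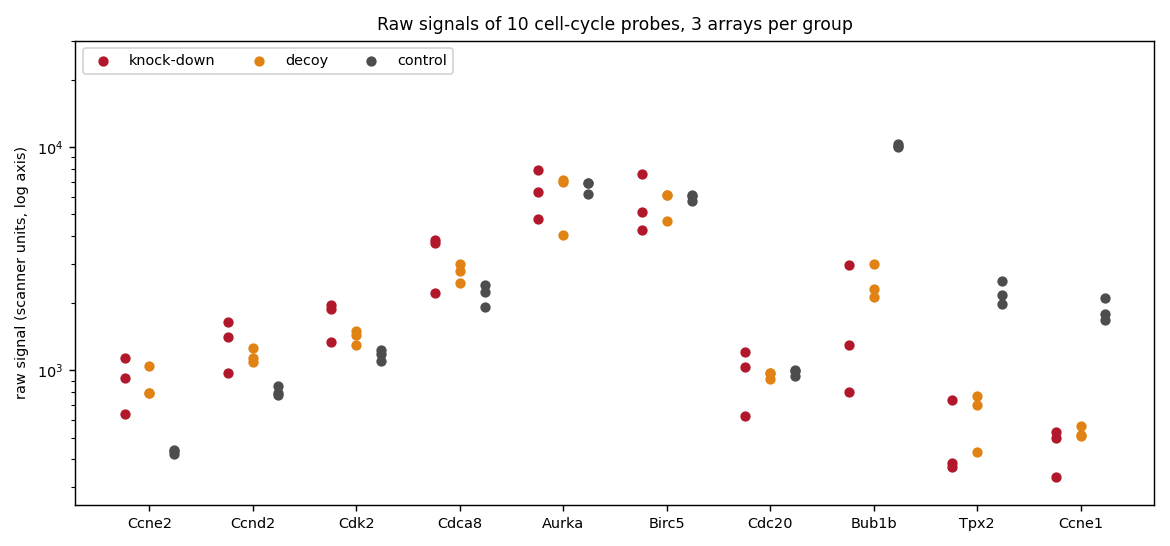
Raw signals (scanner units, log axis) of 10 cell-cycle probes on the 3 knock-down, 3 decoy and 3 control arrays, before any normalization. The plotted probes of Ccne2, Ccnd2 and Cdk2 are higher on every treated array, those of Bub1b, Tpx2 and Ccne1 lower, and those of Cdca8, Aurka, Birc5 and Cdc20 overlap between knock-down and control.

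Raw signals and both scalings separated the probes named here into groups. On the Ccne2, Ccnd2 and Cdk2 probes of largest change every treated array exceeded every control array in raw units, as on a Ccnd3 probe. The dim Cdk6 probe did the same, but at 203 to 252 units against 179 to 200, near the background limit. That limit was itself higher on treated arrays, at 214.5 to 254.2 units against 192.7 to 200.3. Another Ccnd2 probe went the other way in its mean raw signals, 468 and 497 units in knock-down and decoy cells, against 642 in control. Its 663 units on knock-down replicate 1 lay within the control range of 585 to 720. The means of the brightest Cdk2 probe were also lower (6776 and 6409, against 9333). It was at 9336 on knock-down replicate 1, within the control range of 8348 to 10317. The share of all probes without overlap in raw units was not counted. On the probes of Bub1b, Tpx2, Ccne1, Espl1 and Rb1 whose values are given above, the treated arrays lay below control in raw units and under both scalings. The rises of Aurka, Birc5, Cdc20 and Plk1 were called under quantile normalization and not under median scaling, where they were 0.50, 0.48, 0.46 and 0.38 above the median of all probes in knock-down cells. Total RNA per cell was not measured, and which scaling is nearer to it was not tested.

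**Figure D4:**
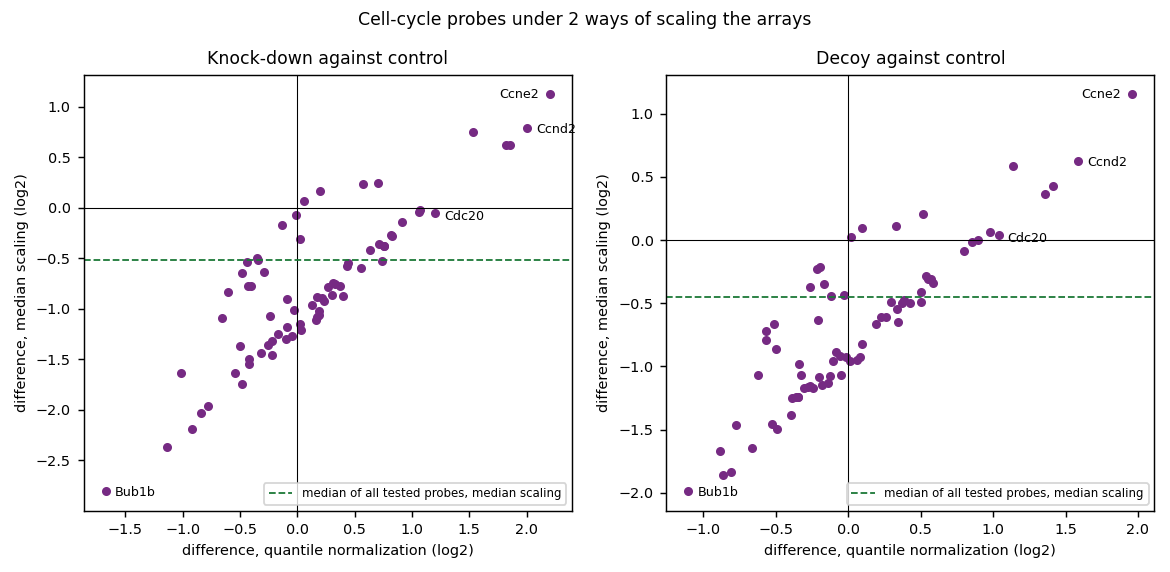
Difference from control (log2) of the 73 tested probes after quantile normalization (horizontal axis) and after scaling arrays to a common median (vertical axis), for the knock-down (left) and the decoy (right), with the median of all tested probes under median scaling as a dashed line (-0.517 and -0.454). The labelled probes, 1 for each gene, are the Ccne2 and Ccnd2 probes that stay above 0 on both axes, a Bub1b probe below 0 on both, and a Cdc20 probe at about 0 on the vertical axis, and other probes of Ccnd2 and Cdc20 lie below 0 on that axis.

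Probes of 1 gene often gave different answers. Of 20 member genes with at least 2 tested probes, 1 had all of its probes called in 1 direction in knock-down cells after quantile normalization. Of the others, 12 had called and uncalled probes, 1 had opposite calls and 6 had no call, and the decoy gave the same numbers. The median gap between the highest and lowest difference within a gene was 0.808 in knock-down cells and 0.609 in decoy cells (log2), and the largest was 2.44 and 1.86, both in Ccnd2.

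The knock-down set against the decoy asked whether the 2 ways of inhibiting NFAT5 differed in these genes. The control arrays add to the estimate of the spread in this test. By limma 0 of the 73 probes were called, against 3.53% of all probes, and 11 had an unadjusted p below 0.05, against 20.3% of all. The smallest adjusted p was 0.0571, for a Kif23 probe 0.48 higher in knock-down cells than in decoy cells (log2). Other differences with an unadjusted p below 0.05 included Bub1b at -0.57, Cdk2 at 0.50, Ccnd3 at 0.48, Cdc20 at 0.47 and Ccnd2 at 0.41. No probe was called with median scaling either, and without decoy replicate 3 the count was 1. Without knock-down replicate 1 it was 6, with Bub1b, Cdk2, Ccnd2 and Ccnd3 among them (-0.81, 0.70, 0.52 and 0.53, adjusted p = 0.00926, 0.0367, 0.0488 and 0.0462).

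Other genes of the cell cycle, from 7 lists, gave 205 tested probes for 119 genes. Of these 53 were higher (25.9%, against 24.2% of all probes) and 50 lower (24.4%, against 23.4%) in knock-down cells. In decoy cells 36 were higher (17.6%, against 17.3%) and 43 lower (21%, against 17.7%). Under median scaling 5 of the 205 were higher and 133 lower in knock-down cells, where 5.81% and 52.2% of all probes were called higher and lower. In decoy cells 3 were higher and 120 lower, where the shares of all probes were 4.98% and 46.9%. The lower probes in knock-down cells then numbered 4 of 7 for the CDK inhibitors, 20 of 33 for the E2F, pocket and DREAM factors and 34 of 46 for the kinetochore genes. They were 19 of 28 for the spindle and cytokinesis genes, 21 of 29 for the mitotic regulators, 13 of 21 for the anaphase-promoting complex and 22 of 41 for the cyclins and CDKs of other roles. In decoy cells the lower probes numbered 4, 18, 32, 18, 18, 12 and 18 in the same order.

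CDK inhibitors had 2 of 7 probes higher and 3 lower in each treated group. Cdkn1a, for p21, was 2.84-fold lower in knock-down cells and 2.22-fold lower in decoy cells on one probe (adjusted p = 7.05e-07 and 1.54e-05), while both of its other probes were called higher (1.24 and 1.04 in knock-down cells), though not under median scaling. Cdkn2d, for p19, was 2.30-fold and 1.93-fold lower. E2F, pocket and DREAM factors had 7 of 33 probes higher and 11 lower in knock-down cells and 4 higher and 11 lower in decoy cells. E2f2 rose 2.86-fold and 1.55-fold and E2f6, a repressor of the family, 2.07-fold and 1.93-fold, and neither was called higher under median scaling. One of the other E2f6 probes was called lower. Rbl1, for p107, was called lower on a probe above background in control only (adjusted p = 0.00014 and 0.000862) and was 1.92-fold and 1.60-fold lower on its probe above background on all arrays.

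Kinetochore genes had 8 of 46 probes higher and 11 lower in knock-down cells and 5 higher and 11 lower in decoy cells, with Dsn1 2.98-fold and 1.81-fold lower and Cenpn 2.36-fold and 2.10-fold lower. Another Cenpn probe was called higher in knock-down cells (0.64). Mad2l1bp, which removes the checkpoint protein MAD2 from its partners, rose 1.99-fold and 1.71-fold, and its 3 probes were all called higher, though none under median scaling (-0.25 and -0.23 on the first). Spindle and cytokinesis genes had 7 of 28 higher and 8 lower in knock-down cells and 4 higher and 7 lower in decoy cells, and the kinesin gene Kif20b (3.26-fold and 2.66-fold lower) and Stmn1, a microtubule destabilizer (2.65-fold and 2.58-fold lower), led by p-value.

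Mitotic regulators had 8 of 29 probes higher and 6 lower in knock-down cells and 6 higher and 4 lower in decoy cells. Melk, a kinase of dividing cells, was 3.07-fold and 2.99-fold higher on 1 probe, with another probe called lower in each comparison, and under median scaling the rise was called in decoy cells (0.95, adjusted p = 0.0291) and not in knock-down cells (0.78, adjusted p = 0.0589). Gtse1 rose 2.14-fold and 1.52-fold on 1 probe and was lower on another, and the cohesin protector gene Sgo2a rose 1.59-fold in decoy cells and was not called in knock-down cells, and neither rise was called under median scaling. Genes of the anaphase-promoting complex had 6 of 21 probes higher and 4 lower in knock-down cells and 2 higher and 3 lower in decoy cells, with Fzr1, its G1 activator, 1.81-fold and 1.48-fold higher, Cdc27 1.89-fold and 2.06-fold higher and Ube2s 1.67-fold lower in decoy cells and at least 1.26-fold lower in knock-down cells. The rises of Fzr1 and Cdc27 were not called under median scaling, and another Cdc27 probe was called lower in knock-down cells (-0.97).

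Cyclins and CDKs of transcription and other roles had 15 of 41 probes higher and 7 lower in knock-down cells and 13 higher and 4 lower in decoy cells. Ccng1, a cyclin induced by p53, was 2.92-fold and 2.10-fold higher on 1 of 3 probes, Ccnt2 1.69-fold and 2.17-fold higher and Cdk10 2.17-fold and 2.04-fold lower on their probes of smallest p. Another Ccnt2 probe was called lower in knock-down cells (-0.62), and another Cdk10 probe higher in decoy cells (0.41). The rises of Ccng1 and Ccnt2 were not called under median scaling.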

How the data were processed

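The raw table holds bead intensities of 45281 probes on 9 Illumina arrays, which the authors deposited without scaling, as the values show. A second deposited table holds log2 values processed by the authors with R 2.9.1, per the submitters' processing notes, with a normalization not given in the sources used here. From the raw intensities, normexp background correction (offset 50), log2 and quantile normalization were run in limma 3.58.1 (R 4.3.3). Probes with a mean over 9 arrays above the median probe's (6.719) were kept, 22640 in all. Symbols came from the platform annotation (1 symbol for 34885 probes, several for 18, none for 10378). A model with 3 group means was fitted with lmFit and eBayes, two-sided, with Benjamini-Hochberg adjustment over all kept probes. Background was set at an array's mode plus 3 SD of its lower side. No member reached saturation (highest raw signal 39317 units). The number of arrays limits the precision.

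The members and lists were chosen with earlier results of these data known. Named probes were those called with a change of at least 2-fold, those called between knock-down and decoy, and all tested probes of a gene with opposite calls; further members were named by role. The other lists were named by up to 2 probes of smallest p per comparison with control. Deviations from the group mean correlated at r from -0.264 to 0.33 between same-numbered arrays of different groups, and from -0.332 to 0.441 between arrays of other numbers. The replicate number was left out of the main model, and whether arrays shared a batch cannot be told from these values. On simulated data for knock-down against control with 22640 probes, of which 200 were changed, 17% of 1.5-fold and 75% of 2-fold changes were recovered, with 6 false calls. In the data 47.6% of all probes were called in this comparison, which sets another p-value limit, so these rates do not carry over to it. Alternatives were other scaling, other background correction, the authors' values, filters, 1 value per gene, array weights, a replicate block, fits of 2 groups and leaving out single arrays.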

Additional observations from a re-analysis of the deposited data

How the results depend on the processing

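Against control, the counts of member probes stayed within 1.5 times under the other filters, array weights, fits of 2 groups, the authors' values and no background correction. With arrays scaled to a common median the probes higher and lower were 5 and 46 in knock-down cells and 2 and 44 in decoy cells; with no scaling between arrays they were 3 and 49, and 2 and 46. With the brightest probe of each of 40 genes, 10 were higher and 8 lower in knock-down cells and 7 higher in decoy cells, and with the mean over a gene's probes 13, 8 and 10, where fewer features were tested. Probes differing between knock-down and decoy numbered 3 with no background correction, 3 with the authors' values and 1 with probes above background on at least 3 arrays. With the replicate block the counts were 21 higher and 12 lower in knock-down cells, 16 higher and 12 lower in decoy cells, and 0 between both. Leaving out 1 array at a time gave 19 to 22 higher and 8 to 19 lower in knock-down cells, 13 to 21 higher and 9 to 15 lower in decoy cells, and 0 to 6 between them (6 without knock-down replicate 1, 1 without decoy replicate 3).

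Median scaling changed the sign of 31 of the 73 differences in knock-down cells and 22 in decoy cells, 14 and 10 of them called after quantile normalization, and turned the call itself on 2 probes in knock-down cells (Cdc25c and Ccnd1) and 1 in decoy cells (Cdc25c). The median of all tested probes moved from 0.0285 to -0.517 in knock-down cells and from 0.0241 to -0.454 in decoy cells. The share of all probes that changed sign was not counted, so these changes cannot be called particular to the members. Among the 13 probes followed under every alternative, the sign changed with median scaling in knock-down cells for Aurka (-0.021), Birc5 (-0.039), Cdc20 (-0.053) and the brightest Ccnd3 probe (-0.89), and in decoy cells for Aurka (-0.089) and Birc5 (-0.0029). With no scaling the same probes were at -0.11, -0.13, -0.15 and -0.98, and in decoy cells Aurka, Birc5 and Cdc20 were at -0.19, -0.10 and -0.059. The mean over its probes put Ccnd3 at 0.42 in knock-down cells and 0.10 in decoy cells, against falls on its dimmest probe. The cause was not tested. Of the single-probe results under all alternatives, 755 were counted as unchanged, 15 lost the call, 10 gained it and 15 were counted as reversed. A difference called under neither setting could change sign and still count as unchanged. Ccne2 between knock-down and decoy was such a case (0.24, and -0.03 with median scaling). Dim probes limit what can be read for Ccna2, Ccnb2, Cenpe, Kif20a, Bub1, Wee1 and Cdkn1b.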
